A study of Mus musculus with 10 samples.

Results

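The genes described here encode 7 secreted carriers of the blood plasma: Afp, Ttr, Trf, Rbp4, Ambp, Vtn and Cp. They were chosen by symbol, for the vitamins, metals and hormones that such proteins carry, and not for how they moved. All 7 were among the 20974 genes measured, and 6 of them were abundant enough to enter the 15603 genes tested (a mean normalized count of at least 15 in at least 1 genotype), Cp being the exception. RNA-sequencing was performed on 10 single mouse embryos at E7.5, 5 Rreb1-/- and 5 Rreb1+/+, labelled as CD1 and collected from Rreb1+/- intercrosses. By the study's methods the mutation is a CRISPR/Cas9 deletion removing most of the coding sequence of exon 6, on a mixed background outbred to CD1. The label names no line, and the parietal endoderm of each embryo had been removed for genotyping, so what was sequenced is the rest of the conceptus. The embryos carry replicate numbers 2 to 6 in each genotype. A normalized count is the number of reads in a gene divided by the size factor of the embryo.

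Before the fetal liver forms, the visceral endoderm, the epithelium that surrounds the early mouse embryo and later lines the yolk sac, makes many of the proteins that the liver will later secrete into plasma. Afp (alpha-fetoprotein) belongs to the albumin family and is the classic secreted product of visceral endoderm, yolk sac and fetal liver. Ttr (transthyretin) carries thyroid hormone and holds the retinol carrier Rbp4 in the circulation. Trf (transferrin) delivers iron to cells through the transferrin receptor, Cp (ceruloplasmin) is a copper-containing ferroxidase, Ambp is cut into alpha-1-microglobulin and the protease inhibitor bikunin, and Vtn (vitronectin) binds integrins and the plasminogen activator inhibitor. Factors of the HNF1, HNF4, FOXA, GATA and C/EBP families drive such genes in liver and endoderm.

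Stretches before 3 RefSeq start sites are given because the results turn on how Afp differed from the other carriers, and because Afp and Vtn had the largest log2 fold changes while Ambp had the smallest. Each is the 250 bases before the start site in RefSeq (GRCm38.p6), 5′ to 3′ on the strand of the gene, with matches to searched motifs in capitals.
Afp, chr5:90490464-90490713, + strand: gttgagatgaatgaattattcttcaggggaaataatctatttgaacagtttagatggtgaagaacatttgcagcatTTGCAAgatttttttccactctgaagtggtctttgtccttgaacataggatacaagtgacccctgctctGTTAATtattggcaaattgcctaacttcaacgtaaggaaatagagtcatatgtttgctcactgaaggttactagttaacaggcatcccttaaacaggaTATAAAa
Vtn, chr11:78498870-78499119, + strand: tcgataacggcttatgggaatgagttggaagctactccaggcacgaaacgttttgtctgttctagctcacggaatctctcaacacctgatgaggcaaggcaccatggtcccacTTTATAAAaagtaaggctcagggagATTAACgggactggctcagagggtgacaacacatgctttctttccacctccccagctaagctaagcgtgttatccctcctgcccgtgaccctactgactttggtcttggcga
Ambp, chr4:63154173-63154422, - strand: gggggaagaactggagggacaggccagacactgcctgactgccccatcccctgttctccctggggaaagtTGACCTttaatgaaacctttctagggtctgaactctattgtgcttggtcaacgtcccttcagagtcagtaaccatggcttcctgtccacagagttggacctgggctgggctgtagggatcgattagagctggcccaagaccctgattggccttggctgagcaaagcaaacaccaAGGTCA

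The motifs were searched on both strands over the 250 bases before each start. The letters GTTAAT, part of the site read by HNF1 factors, occurred in Afp at -105 to -100 and, on the reverse strand as ATTAAC, in Vtn at -112 to -107. They were present in 6.43% of the 32851 RefSeq promoters of the same length. TTGCAA, part of the C/EBP site, occurred in Afp at -174 to -169 and was present in 5.34% of promoters. AGGTCA, the hexamer read by nuclear receptors, occurred in Ambp at -6 to -1 and, on the reverse strand as TGACCT, at -180 to -175 (14.0% of promoters). TATAAA occurred in Afp at -7 to -2 and in Vtn at -135 to -130, where it overlaps TTTATA on the reverse strand (12.4% of promoters). The FOXA letters TGTTTAC, held by 3.17% of promoters, had no match in these 3 stretches. The letters read by GATA factors were searched as AGATAA, which 9.99% of promoters hold, and they had no match either. The same was true of the RREB1 core AAACCACC, which 0.868% of promoters hold. Promoters were matched for 5 of the 7 genes, and those of Ttr and Trf were not used here. Cp, with nearly equal means in the genotypes (10.7 in Rreb1-/- and 10.8 in Rreb1+/+ embryos), also held the HNF1 and C/EBP letters. ATTAAC lay at -194 to -189 and TTGCAA at -68 to -63, before separate starts of Cp. The FOXA letters occurred before a start of Rbp4, as GTAAACA at -241 to -235. Positions and stretches follow the RefSeq starts, which differ from the outermost GENCODE M21 starts of these genes. The GENCODE start of Afp, 90490737, lies downstream of its stretch, that of Vtn, 78499091, lies inside its stretch, and that of Ambp, 63154799 on the - strand, puts the whole Ambp stretch inside the GENCODE gene. These matches describe letters only, and no binding was measured.

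Depth was 31467767 to 35446574 counted reads in Rreb1-/- embryos and 33317560 to 35786876 in Rreb1+/+ embryos. Rreb1 itself averaged 5010 ± 718 normalized counts in the mutants and 2644 ± 211 in the wild-type embryos (SD, n = 5 each), a sum over all exons that does not check the deletion of part of exon 6. Y-linked reads were present in Rreb1-/- replicates 3 to 6 and near 0 in Rreb1-/- replicate 2 and in every Rreb1+/+ embryo, so that genotype and sex can be told apart only through that 1 mutant. The first principal component of the genes tested (37.0% of the variance) placed replicates 5 and 6 above replicates 2 to 4 in each genotype. Replicates 5 and 6 lay at 27.8 and 33.9 in Rreb1-/- embryos and at 48.2 and 44.5 in Rreb1+/+ embryos. Replicates 2 to 4 lay at -47.5 to -43.7 in Rreb1-/- embryos and at -6.77 to -3.64 in Rreb1+/+ embryos. This component thus also separated the genotypes within each set. Because replicates 5 and 6 lay apart, the genotype differences of the 6 tested carriers are also given within those 2 sets of replicates. Comparisons of Afp with other genes, and the gene lists, are not given by set. The sets come from the expression of these embryos, not from a label, so p-values within them are no independent evidence.

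Afp was the carrier that differed between genotypes. It had normalized counts of 4757.7, 3424.9, 2831.0, 7237.3 and 7989.1 in Rreb1-/- replicates 2 to 6, against 10884.7, 10611.4, 15295.6, 11825.4 and 12399.7 in Rreb1+/+ replicates 2 to 6. Every mutant lay below every wild-type embryo, and the highest mutants were replicates 5 and 6. Afp averaged 5248 ± 2285 across the mutants and 12203 ± 1872 across the wild-type embryos (SD, n = 5 each), giving 0.430 as their ratio. On the log2(normalized count + 1) scale Afp fell by 1.32 (SE 0.26, 95% interval -1.90 to -0.75, adjusted p = 0.0157 by limma over all genes tested, exact two-sided permutation p = 0.00794). That permutation p is the smallest that the 252 arrangements of 5 and 5 embryos can give. Rreb1-/- replicate 2, the mutant without Y-linked reads, was also below every wild-type embryo, but the call was lost in a fit that also held the summed Y-linked counts (log2 fold change -1.40, adjusted p = 0.184).

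Of the 6 carriers tested, 1 was called lower and 0 higher by limma, against 1.15% of all genes tested called lower and 3.11% called higher. By edgeR and by DESeq2 on the recovered reads 1 carrier was again lower and 0 higher, where 1.08% and 3.24% of genes were called lower and higher by edgeR and 2.74% and 5.03% by DESeq2. At an unadjusted p under 0.05 in limma the count was also 1 and 0, beside 8.21% of all genes lower and 9.74% higher, the background for every unadjusted count given here. The share of all genes tested with every mutant below every wild-type embryo was 2.46%. The median log2 fold change of the 6 was -0.44, beside -0.02 over all genes tested. The plot of normalized counts by embryo shows the separation of Afp and the overlap of the other carriers.

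**Figure D1:**
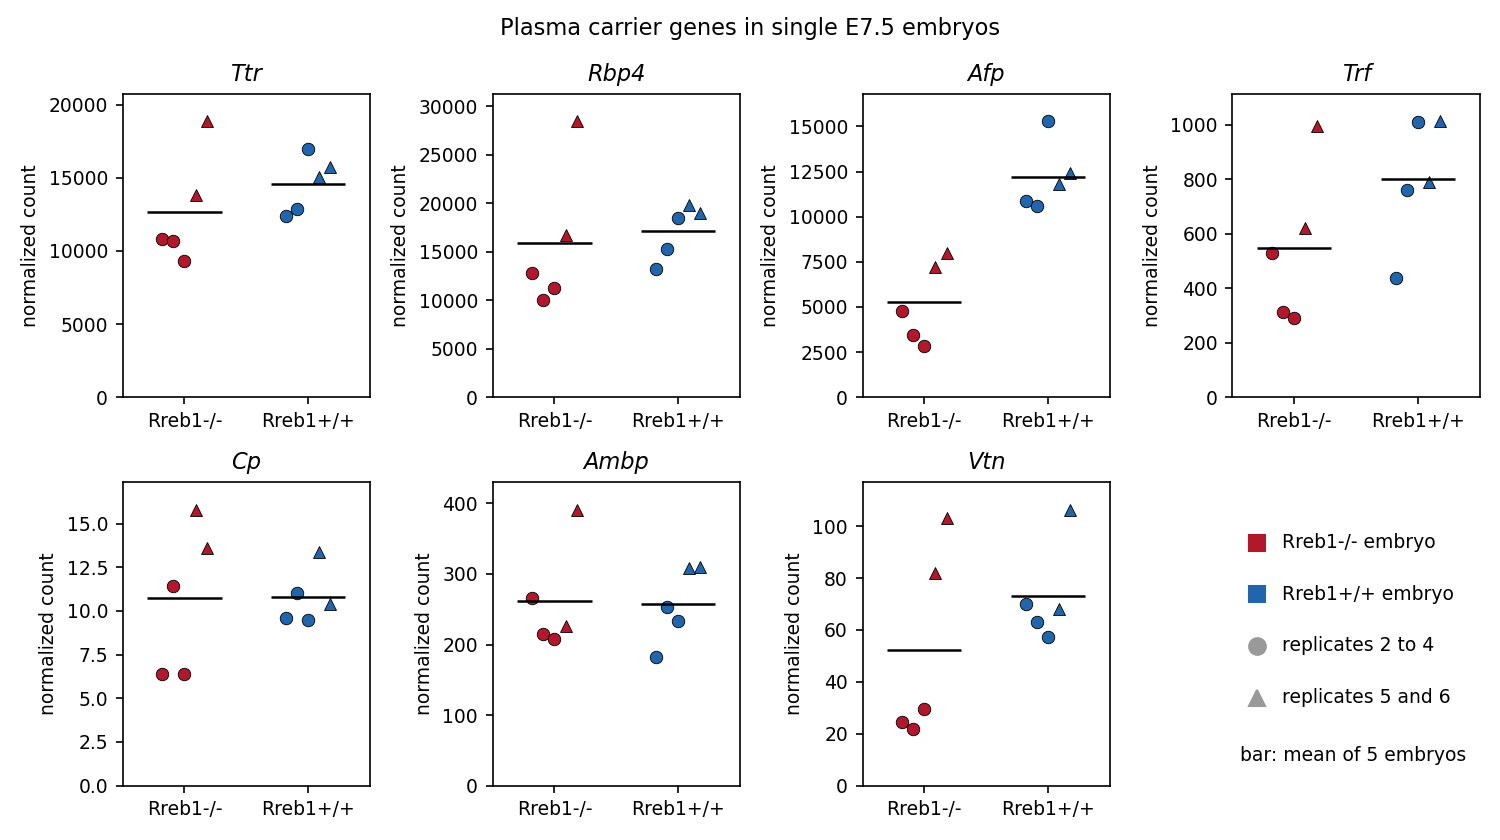
Normalized count (y axis, linear, from 0) of each carrier gene in single E7.5 embryos, Rreb1-/- on the left and Rreb1+/+ on the right of each panel. Each point is 1 embryo, triangles are replicates 5 and 6, and bars are means of 5 embryos. The genotypes are separate for Afp (2831.0 to 7989.1 in Rreb1-/- embryos, 10611.4 to 15295.6 in Rreb1+/+ embryos) and overlap for the other 6 genes.

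The thyroid hormone and retinol carriers were not called. Ttr had normalized counts of 10809.3, 10667.5, 9309.5, 13804.6 and 18881.1 in Rreb1-/- replicates 2 to 6, against 12378.5, 12885.2, 16997.9, 15029.0 and 15720.3 in Rreb1+/+ replicates 2 to 6. Mutant replicates 2 to 4 lay below every wild-type embryo and mutant replicate 6 lay above them all. Ttr averaged 12694 ± 3828 in Rreb1-/- embryos and 14602 ± 1941 in Rreb1+/+ embryos (log2 fold change -0.24, 95% interval -0.62 to 0.14, adjusted p = 0.511 by limma). Rbp4, the plasma partner of Ttr, followed the same order among the mutants at its upper end. It had 12850.1, 10068.9, 11219.8, 16708.7 and 28477.5 in Rreb1-/- replicates 2 to 6, against 13208.4, 15260.5, 18507.4, 19780.7 and 18999.5 in Rreb1+/+ replicates 2 to 6. The genotypes overlapped because mutant replicates 5 and 6 reached into or above the wild-type range. Rbp4 averaged 15865 ± 7484 in Rreb1-/- embryos and 17151 ± 2797 in Rreb1+/+ embryos (log2 fold change -0.20, 95% interval -0.75 to 0.34, adjusted p = 0.713). Neither interval reached the fold change of Afp.

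The metal carriers were of very unequal level. Trf had normalized counts of 527.7, 313.8, 288.8, 621.7 and 993.0 in Rreb1-/- replicates 2 to 6, against 438.5, 759.0, 1009.2, 787.5 and 1012.7 in Rreb1+/+ replicates 2 to 6. Mutant replicates 3 and 4 were lowest, but wild-type replicate 2 lay below 3 of the mutants. The mean was 549 ± 285 in Rreb1-/- embryos and 801 ± 235 in Rreb1+/+ embryos (log2 fold change -0.63, 95% interval -1.38 to 0.11, adjusted p = 0.357). Cp, with 10.7 ± 4.25 in Rreb1-/- embryos and 10.8 ± 1.60 in Rreb1+/+ embryos, rested on 6 to 17 reads per mutant and 10 to 14 reads per wild-type embryo, too few for the test across genes (exact permutation p = 0.754). At that depth a difference in Cp would have been hard to detect.

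Ambp and Vtn, the inhibitor precursor and the adhesion protein, were not called either. Ambp had 266.0, 215.1, 208.1, 225.8 and 391.2 in Rreb1-/- replicates 2 to 6, against 182.3, 253.0, 233.0, 308.3 and 309.9 in Rreb1+/+ replicates 2 to 6. The means were nearly equal, 261 ± 76.0 in Rreb1-/- embryos and 257 ± 53.9 in Rreb1+/+ embryos (log2 fold change 0.01, 95% interval -0.43 to 0.45, adjusted p = 0.991), with the highest embryo and 3 of the 4 lowest being mutants. Vtn had 24.4, 21.8, 29.7, 81.8 and 103.3 in Rreb1-/- replicates 2 to 6, against 70.0, 63.2, 57.3, 68.2 and 106.4 in Rreb1+/+ replicates 2 to 6. Its mutants fell into a low trio, all below every wild-type embryo, and a pair within the wild-type range. Vtn averaged 52.2 ± 37.7 in Rreb1-/- embryos and 73.0 ± 19.3 in Rreb1+/+ embryos (log2 fold change -0.74, 95% interval -1.67 to 0.20, adjusted p = 0.398).

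**Figure D2:**
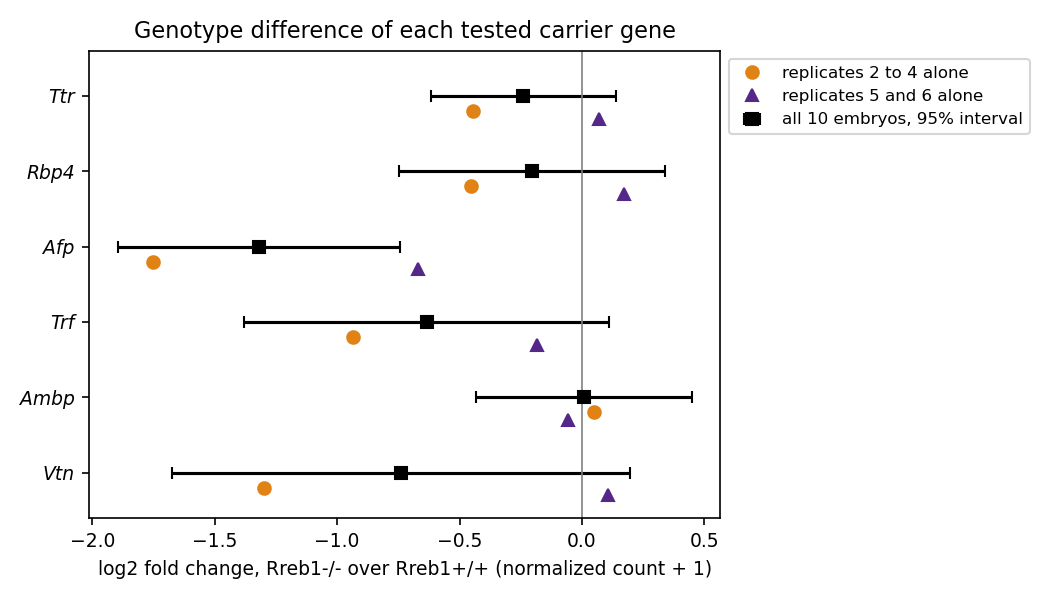
Log2 fold change of the 6 tested carriers (x axis, Rreb1-/- over Rreb1+/+ on normalized count + 1), with squares and 95% intervals from all 10 embryos. Circles are replicates 2 to 4 alone and triangles replicates 5 and 6 alone. Afp is the gene whose interval from all embryos leaves out 0 (-1.90 to -0.75), and Vtn lies at -1.30 in replicates 2 to 4 and 0.11 in replicates 5 and 6.

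Per kilobase of exon, a scale on which genes can be set side by side, Rbp4 and Ttr were the most abundant carriers, followed by Afp. The normalized count per kilobase was 11813 in Rreb1-/- embryos and 12771 in Rreb1+/+ embryos for Rbp4, and 10704 in Rreb1-/- embryos and 12312 in Rreb1+/+ embryos for Ttr. For Afp it was 1558 in Rreb1-/- embryos and 3623 in Rreb1+/+ embryos. Ambp (185 in Rreb1-/- and 183 in Rreb1+/+ embryos) and Trf (165 in Rreb1-/- and 241 in Rreb1+/+ embryos) were neighbours that exchanged places between genotypes. Vtn (25.7 in Rreb1-/- and 36.0 in Rreb1+/+ embryos) and Cp (1.12 in Rreb1-/- and 1.13 in Rreb1+/+ embryos) were the lowest. Within embryos Rbp4 was above Ttr in 4 of 5 Rreb1-/- and 3 of 5 Rreb1+/+ embryos (exact paired permutation p = 0.562 in Rreb1-/- and 0.438 in Rreb1+/+ embryos). Trf was above Ambp in 2 of 5 Rreb1-/- embryos (exact p = 0.312) and in 5 of 5 Rreb1+/+ embryos (exact p = 0.0625, the smallest that 5 pairs can give). The other neighbours in this order did not overlap in either genotype. The lengths are of all annotated exons of a gene in GENCODE M21, not of the transcripts present. The level and place of Trf are uncertain, because an annotated gene on its own strand, Gm20425, shares 26307 bases with it.

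The spread between embryos was wider in mutants for each of the 7 carriers. The coefficient of variation was 43.5% in Rreb1-/- and 15.3% in Rreb1+/+ embryos for Afp, 47.2% in Rreb1-/- and 16.3% in Rreb1+/+ embryos for Rbp4, and 72.2% in Rreb1-/- and 26.4% in Rreb1+/+ embryos for Vtn. For the other 4 it was 29.1% to 52.0% in Rreb1-/- embryos and 13.3% to 29.4% in Rreb1+/+ embryos. This difference in spread was not tested, and the share of all genes with a wider spread in mutants was not counted. It was not particular to the carriers. The visceral endoderm marker Dab2 had 38946 ± 6446 in Rreb1-/- and 37186 ± 2423 in Rreb1+/+ embryos, and Lrp2 had 24408 ± 3887 in Rreb1-/- and 23995 ± 2034 in Rreb1+/+ embryos. For the marker Cldn6 the SDs were close (11685 ± 1396 in Rreb1-/- and 12464 ± 1437 in Rreb1+/+ embryos). The mean of replicates 5 and 6 over that of replicates 2 to 4 was 1.34 (Ambp) to 3.66 (Vtn) in Rreb1-/- embryos and 0.988 (Afp) to 1.39 (Ambp) in Rreb1+/+ embryos. It was higher in the mutants for 6 of the carriers but not for Ambp (1.34 in Rreb1-/- and 1.39 in Rreb1+/+ embryos), and the part of the sets in the spread was not tested.

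Afp was lower in the mutants of both sets. In replicates 2 to 4 it had 0.299 of the wild-type mean (log2 fold change -1.75, adjusted p = 0.00641, n = 3 each, limma), and in replicates 5 and 6 it had 0.629 of it (-0.67, adjusted p = 0.0484, n = 2 each, limma). Vtn, a gene near the lower end of detection, was called in replicates 2 to 4 and not in replicates 5 and 6, with 0.398 of the wild-type mean there (-1.30, adjusted p = 0.0272, limma) and 1.06 of it in replicates 5 and 6 (0.11, adjusted p = 0.913, limma). Replicates 2 to 4 thus gave 2 carriers called lower of 6, where 1.41% of genes were called lower, and replicates 5 and 6 gave 1, where 0.134% were. Mutant over wild-type means in replicates 2 to 4 were 0.728 for Ttr, 0.727 for Rbp4, 0.512 for Trf and 1.03 for Ambp. In replicates 5 and 6 they were 1.06 for Ttr, 1.17 for Rbp4, 0.897 for Trf and 0.998 for Ambp. The difference between the sets in the genotype effect was itself tested by an interaction term in limma, and none of the 6 passed (0.0449% of genes did). The term was 1.08 (SE 0.29, adjusted p = 0.432) for Afp and 1.41 (SE 0.37, adjusted p = 0.393) for Vtn, and the adjusted p of the other 4 was 0.905 to 0.970.

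Because the carriers tended to be high or low in the same embryos, Afp was also set against each of the others within an embryo, which removes any factor common to both genes. The ratio of Afp to Ttr was 0.304 to 0.524 in Rreb1-/- embryos and 0.787 to 0.900 in Rreb1+/+ embryos, averaging 0.403 ± 0.0908 among mutants and 0.836 ± 0.0519 among wild-type embryos (SD, n = 5 each, log2 difference -1.08, exact permutation p = 0.00794). The ratio to Rbp4 was 0.252 to 0.433 in Rreb1-/- embryos and 0.598 to 0.826 in Rreb1+/+ embryos (log2 difference -1.12), and the ratio to Trf was 8.05 to 11.6 in Rreb1-/- embryos and 12.2 to 24.8 in Rreb1+/+ embryos (log2 difference -0.68). Against Ambp it was 13.6 to 32.0 in Rreb1-/- embryos and 38.4 to 65.7 in Rreb1+/+ embryos (log2 difference -1.33), and against the few reads of Cp it was lower by 1.22 on the log2 scale. The genotypes did not overlap in any of these 5 ratios, each with the smallest exact p of 0.00794.

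The ratio of Afp to Vtn was the exception. It ranged from 77.4 to 195 in Rreb1-/- embryos and from 116 to 267 in Rreb1+/+ embryos (log2 difference -0.56, exact permutation p = 0.111). All 6 ratios share the values of Afp, so they are not independent of each other, and the p-values are not adjusted over them. The share of all genes tested whose ratio was lower in every mutant than in every wild-type embryo was 0.352% for ratios to Ttr, 0.359% to Rbp4, 0.0961% to Trf, 0.673% to Ambp, 0.429% to Cp and 0.0449% to Vtn.

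**Figure D3:**
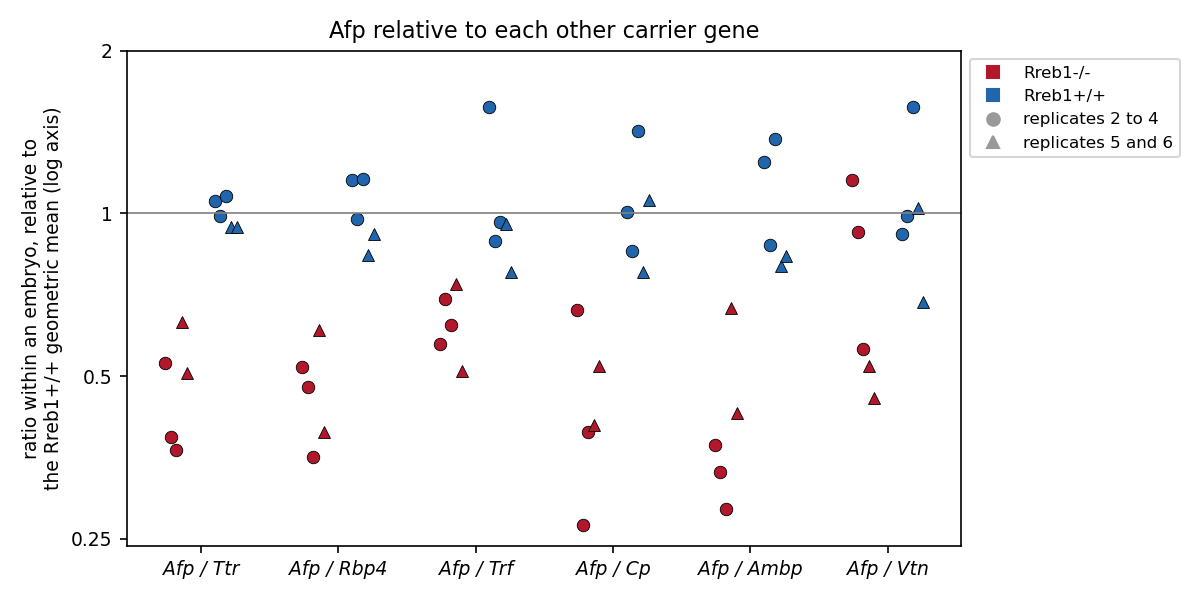
Ratio of Afp to each other carrier within an embryo (y axis, log scale, relative to the geometric mean of the 5 Rreb1+/+ embryos), with Rreb1-/- embryos to the left of Rreb1+/+ embryos for each gene. Each point is 1 embryo and triangles are replicates 5 and 6. The genotypes do not overlap except in the ratio to Vtn (77.4 to 195 in Rreb1-/- and 116 to 267 in Rreb1+/+ embryos).

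In whole embryos fewer visceral endoderm cells and less RNA per cell cannot be told apart. Markers of visceral endoderm were 0 of 10 called in either direction (0 at an unadjusted p under 0.05, and 0 by edgeR and DESeq2), with a median log2 fold change of 0.00. Their summed normalized count was 145605 to 205452 in Rreb1-/- embryos and 168931 to 197125 in Rreb1+/+ embryos, and none of the 10 was at 0 in all embryos. Relative to the geometric mean of these markers, Afp was 0.443 to 1.15 in Rreb1-/- embryos and 1.40 to 1.92 in Rreb1+/+ embryos (exact permutation p = 0.00794). The other 6 carriers overlapped between genotypes on this scale, with exact permutation p of 0.119 (Trf) to 0.984 (Ambp). The share of all genes tested that separate on this scale was not counted. Without the scaling, every mutant lay below every wild-type embryo for 2.46% of genes.

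Markers of other tissues were followed for the same reason. Parietal endoderm markers (0 of 7 called) summed to 49737 to 108542 in Rreb1-/- embryos and 51578 to 68459 in Rreb1+/+ embryos, and epiblast and trophoblast markers had 0 of 6 and 0 of 5 called. Blood cell markers had 0 of 6 called (3 lower in limma with the replicate block, where 2.28% of all genes were lower and 4.59% higher), a median log2 fold change of -1.63 and a sum of 375 to 3081 in Rreb1-/- embryos and 1095 to 12453 in Rreb1+/+ embryos. Decidua markers, maternal tissue, had 0 of 2 tested called by limma and 1 higher by DESeq2 (5.03% of all genes) and with the replicate block (4.59%), Pgr. Their sum was 299 to 341 in Rreb1-/- embryos and 206 to 261 in Rreb1+/+ embryos. Most of it was Pgr (mean 281 in Rreb1-/- and 188 in Rreb1+/+ embryos). The others were low and did not move together. Hoxa11 had 23.0 in Rreb1-/- and 35.8 in Rreb1+/+ embryos, Prl8a2 3.14 and 7.29, and Dcn 13.1 and 11.3. The share of all genes higher in every mutant was not counted. The part of these tissues in the values of the carriers was not tested.

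Afp lies in the albumin gene cluster of chromosome 5 (GRCm38, GENCODE M21), at 90490737 to 90508907 on the + strand, between Alb (90460897 to 90476602) and Afm (90518932 to 90553543). Alb had no entry among the genes measured, so it has no value here. Afm, which encodes the vitamin E carrier afamin, had 0 to 25.4 in Rreb1-/- embryos and 0 to 26.9 in Rreb1+/+ embryos, with means of 14.1 in Rreb1-/- and 15.4 in Rreb1+/+ embryos (log2 fold change -0.09, adjusted p = 0.977). Gc, the vitamin D carrier of the same family, lies at 89417522 to 89457898 on the - strand and had 86.8 ± 30.2 in Rreb1-/- embryos and 125 ± 21.2 in Rreb1+/+ embryos (log2 fold change -0.58, adjusted p = 0.259). An antisense gene, Gm43449, overlaps 9820 bases of Afp and had at most 3.1 in Rreb1-/- embryos and 8.5 in Rreb1+/+ embryos.

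The other carriers are scattered over the genome. Ttr lies at 20665280 to 20674321 of chromosome 18, Rbp4 at 38116629 to 38125281 of chromosome 19 and Trf at 103204001 to 103230444 of chromosome 9. Ambp lies at 63143275 to 63154799 of chromosome 4, Vtn at 78499091 to 78502324 of chromosome 11 and Cp at 19957054 to 20009145 of chromosome 3. Trf shares 26307 bases with an annotated gene on its own strand, Gm20425, and Cp shares 13201 bases with Hps3 on the opposite strand. How the counting treated reads in such overlaps, and whether it used strand, the sources used here do not give. The overlap covers nearly the whole span of Trf, so the level of Trf is uncertain. Cp, at 6.4 to 15.8, lay far below Hps3, at 1314.9 to 1741.5 in Rreb1-/- embryos and 1045.5 to 1338.4 in Rreb1+/+ embryos, so the few reads of Cp are uncertain.

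Other secreted carriers, from a list of 15 chosen by role, had 10 members in the table and 4 abundant enough to test, of which 0 were called lower or higher (1 lower at an unadjusted p under 0.05, Gc; edgeR and DESeq2 called 0). Selenop, which carries selenium, had 10814 ± 2249 in Rreb1-/- embryos and 11737 ± 577 in Rreb1+/+ embryos (log2 fold change -0.14, adjusted p = 0.579). Tcn2, the carrier of vitamin B12, had 3468 ± 542 in Rreb1-/- embryos and 3462 ± 177 in Rreb1+/+ embryos (-0.01, adjusted p = 0.971). The median of the 4 was -0.11, beside -0.02 over all genes tested. Haptoglobin (Hp) and hemopexin (Hpx), the carriers of hemoglobin and heme, stayed under a mean of 15.

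Retinol-handling genes stand next to Rbp4 and Ttr in function. Of 7 genes 5 were tested, and 0 were called by limma or edgeR, with 1 lower and 1 higher at an unadjusted p under 0.05 and likewise by DESeq2. Limma with the replicate block called 1 of them higher, where 4.59% of all genes were higher. Stra6, a receptor for the Rbp4 and retinol complex, had 361 ± 163 in Rreb1-/- embryos and 489 ± 214 in Rreb1+/+ embryos (-0.44, adjusted p = 0.561). Bco1, which cleaves beta-carotene, had 245 ± 10.8 in Rreb1-/- embryos and 347 ± 88.3 in Rreb1+/+ embryos (-0.47, adjusted p = 0.119). Rdh10, which oxidizes retinol, had 1070 ± 169 in Rreb1-/- embryos and 1201 ± 33.0 in Rreb1+/+ embryos (-0.18, adjusted p = 0.370).

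Iron and copper genes, the handlers of what Trf and Cp carry, had 20 of 22 members tested and 0 called (1 lower at an unadjusted p under 0.05, and 0 by edgeR and DESeq2), with a median of -0.07. The transferrin receptor Tfrc had 10273 ± 1369 in Rreb1-/- embryos and 8957 ± 1123 in Rreb1+/+ embryos (log2 fold change 0.20, 95% interval -0.04 to 0.43, adjusted p = 0.360). The ferritin chain Fth1 had 31914 ± 2171 in Rreb1-/- embryos and 33353 ± 2114 in Rreb1+/+ embryos (-0.06, adjusted p = 0.640). The other ferritin chain, Ftl1, had 27586 ± 5298 in Rreb1-/- embryos and 28585 ± 4760 in Rreb1+/+ embryos (-0.06, adjusted p = 0.878). Ferritin stores iron, and these were the most abundant genes of the list.

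Partners of Ambp and vitronectin had 8 of 13 members tested and 0 called (1 lower and 1 higher at an unadjusted p under 0.05, and 0 by edgeR and DESeq2), with a median of 0.05. Furin, a protease that cuts secreted precursors, had 2378 ± 632 in Rreb1-/- embryos and 3207 ± 329 in Rreb1+/+ embryos (log2 fold change -0.47, adjusted p = 0.164). Itgav, the integrin subunit of vitronectin receptors, had 2148 ± 206 in Rreb1-/- embryos and 1878 ± 191 in Rreb1+/+ embryos (0.19, adjusted p = 0.270). Among 14 regulators of plasma protein genes, all tested, 0 were called (1 lower at an unadjusted p under 0.05, and 0 by edgeR and DESeq2), with a median of -0.04. Hnf4a had 4935 ± 662 in Rreb1-/- embryos and 5450 ± 455 in Rreb1+/+ embryos (log2 fold change -0.15, adjusted p = 0.461), and Gata4 had 3854 ± 681 in Rreb1-/- embryos and 3547 ± 558 in Rreb1+/+ embryos (0.11, adjusted p = 0.713). Zhx2, known in mouse liver as a repressor of Afp, had 226 ± 53.9 in Rreb1-/- embryos and 294 ± 35.8 in Rreb1+/+ embryos (-0.41, adjusted p = 0.238). The plot of carriers beside lists chosen by role shows that Afp is the only gene among them called by limma without the block.

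**Figure D4:**
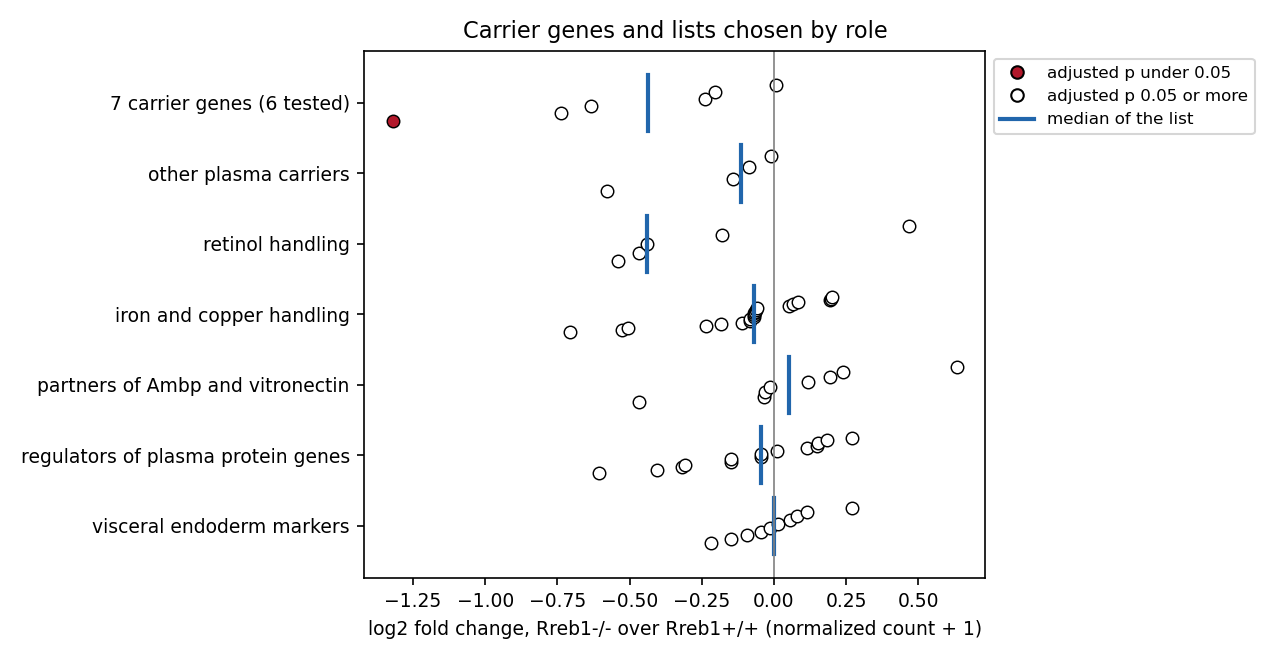
Log2 fold change (x axis, Rreb1-/- over Rreb1+/+ on normalized count + 1) of each tested gene in the carriers and in 6 lists chosen by role, from 5 embryos of each genotype. Each circle is 1 gene, filled where the limma adjusted p was under 0.05, and the vertical bar is the median of the list. The filled circle is Afp at -1.32, and the medians of the other lists lie between -0.44 and 0.05.

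The genes whose pattern over the 10 embryos was most like that of Afp were ranked by Pearson's r of log2(normalized count + 1). They were Zbed3 (r = 0.982), Spp2 (0.981), Aqp3 (0.976), Arhgap1 (0.959) and Fga (0.955). Spp2 had a mean of 145 in Rreb1-/- embryos and 396 in Rreb1+/+ embryos (log2 fold change -1.57, limma adjusted p = 0.0163). Aqp3, a water and glycerol channel, had 787 in Rreb1-/- embryos and 2043 in Rreb1+/+ embryos (-1.57, adjusted p = 0.0322). Fga, a fibrinogen chain, had 499.6 in Rreb1-/- embryos and 1015 in Rreb1+/+ embryos (-1.06, adjusted p = 0.00397 by limma). Differences were smaller for Zbed3, with 540 in Rreb1-/- and 636 in Rreb1+/+ embryos (log2 fold change -0.24, limma adjusted p = 0.121). Arhgap1 had 3666 in Rreb1-/- and 4881 in Rreb1+/+ embryos (-0.42, adjusted p = 0.00805 by limma). All of them but Zbed3 were thus called lower, as Afp was. Because Zbed3 and Arhgap1 changed less, a high r does not by itself mean a fall of the size of that of Afp. For Ttr the nearest genes were Espn (r = 0.962), Vwce (0.951), Surf4 (0.943), Ext2 (0.943) and Rbp4 (0.939). Among the tested carriers r with Ttr was 0.939 for Rbp4, 0.918 for Trf, 0.817 for Vtn, 0.783 for Afp and 0.666 for Ambp. The 10 points share genotype, replicate set and normalization, and these values are a description of 10 embryos.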

How the data were processed

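Whole-embryo polyA RNA from 10 single E7.5 embryos was sequenced on a stranded library kit. The deposited signal is, as the authors describe, HTSeq reads per gene after STAR alignment, divided by a DESeq size factor. The sources used here do not give the genome build, gene models and strand setting. Whole reads were recovered from the steps of each column (100% of values whole within 0.1 read) and used for edgeR 4.0.16, DESeq2 1.42.0 and the depth.

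Where either genotype's mean reached 15, a gene was tested with limma 3.58.1 (R 4.3.3, variance trend) on log2(normalized count + 1), which understates changes of low genes. P-values were adjusted by Benjamini-Hochberg over 15603 genes and called under 0.05. Single values were compared by exact two-sided permutation. Each embryo has its own library, and the labels do not name litters. Same-numbered embryos deviated together (5 correlations, 0.253 to 0.459), so a fit blocked on the number was an alternative. Embryos of different number were not compared in this way, so these values do not show pairing by number. The carriers, lists, replicate sets and tests were chosen with earlier results of these data known. Genes named were all carriers, the neighbours of Afp in the albumin cluster, up to 4 called genes or else those of highest mean in each list that is not of markers, and the genes most like Afp and Ttr. Zhx2, Pgr, Hoxa11, Prl8a2, Dcn, Hp, Hpx, Hps3, Gm43449, Dab2, Lrp2 and Cldn6 were added after their values were seen. Alternatives were other tools, scalings, filters and pseudocounts, a block, a Y-linked covariate, subsets and leaving out each embryo. Some genes of the lists are not reported here. The fit was tested on simulated data.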

Additional observations from a re-analysis of the deposited data

Results flagged for a closer look

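Each genotype's 5 values of every carrier and of every ratio of Afp to another carrier were examined for an embryo far from the others, 26 groups in all. About 1 in 20 groups is expected to show such an embryo by chance. Vtn had a normalized count of 106.4 in Rreb1+/+ replicate 6, where the other 4 wild-type embryos lay between 57.3 and 70.0. The ratio of Afp to Trf was 24.8 in Rreb1+/+ replicate 2, where the other wild-type embryos lay between 12.2 and 15.2. In that embryo Trf was at 438.5, the lowest wild-type value, while Afp was at 10884.7, within the wild-type range. Without Rreb1+/+ replicate 2 the log2 difference of this ratio was -0.52 (exact permutation p = 0.0159).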

How the results depend on the processing

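The count of 1 carrier lower and 0 higher was unchanged in 21 of 23 alternatives, the 10 that left out an embryo among them. It was 0 lower with the summed Y-linked counts in the fit, where Afp was at -1.40 (adjusted p = 0.184, limma), and 2 lower in replicates 2 to 4 alone, where Vtn was at -1.30. Leaving out an embryo gave Afp -1.50 to -1.13 (adjusted p = 0.00603 to 0.0444), Ttr -0.39 (without Rreb1-/- replicate 6) to -0.14 (without Rreb1-/- replicate 4), Rbp4 -0.44 (without Rreb1-/- replicate 6) to -0.067 (without Rreb1-/- replicate 3), Trf -0.89 to -0.44, Vtn -1.05 to -0.51, Ambp -0.15 to 0.081, with a changed sign in 4 of the 10 fits, and the ratio of Afp to Trf -0.77 to -0.52. None of these carriers other than Afp was called in those fits. With the summed Y-linked counts Ttr was at -0.46, Rbp4 at -0.44 and Vtn at -1.49, none called. With the replicate block Afp was at -1.32 (adjusted p = 0.0194), and the block changed no call of a carrier. In replicates 5 and 6 alone Ttr (0.071), Rbp4 (0.17), Vtn (0.11) and Ambp (-0.056) changed sign, and so did Ambp after quantile normalization (-0.023), none of them called. The cause was not tested. Permutation of the ratios within replicate pairs has 32 arrangements and cannot go below p = 0.0625, the value reached for ratios to Ttr (-1.08), Trf (-0.68), Rbp4 (-1.12), Ambp (-1.33) and Cp (-1.22). Depth limits Cp and, with 21 to 113 reads, Vtn.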
